A study of Mus musculus with 3 samples.

Results

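Transforming growth factor beta (TGF-beta) and bone morphogenetic protein (BMP) pathway genes, together with the Id genes, were followed in mouse macrophages as they became osteoclasts, the multinucleated cells that resorb bone. The genes were taken by symbol (ligands named Tgfb, Inhb, Bmp or Gdf, the latent binding proteins Ltbp, the receptors Tgfbr, Acvr and Bmpr, the Smads, and Id1 to Id4) from the probe sets that name 1 gene. This gave 54 genes, read by 88 probe sets, of 12393 genes on the array. Bone marrow cells of C57/BL6 mice had been grown for 3 days with 50 ng/ml of human M-CSF, the cytokine that makes macrophages of them, and all 3 cultures share this step. The macrophages were then given 150 ng/ml of human RANKL, the cytokine that drives osteoclast formation, for 0, 24 or 72 h. Whether M-CSF was kept in the medium during this step is not given in the sources used here. Biotin-labelled cRNA was made from 5 µg of total RNA and each time was read on 1 array. There was 1 sample per time, so no difference below has a replicate check, a test or a p-value. No culture kept for 24 or 72 h without RANKL is among the samples analysed here, so the effect of RANKL and that of longer culture cannot be told apart.

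TGF-beta, activins and BMPs are secreted dimers that bring together type I and type II receptor kinases. The type I kinase phosphorylates receptor Smads, which join Smad4 and enter the nucleus, with Smad2 and Smad3 serving TGF-beta and activin and Smad1, Smad5 and Smad9 serving BMPs. Smad6 and Smad7 are induced by these signals and block them, and the Id genes, whose proteins bind helix-loop-helix transcription factors and keep them off DNA, are well known BMP targets. In bone, TGF-beta is stored in the matrix in a latent form that osteoclasts release during resorption, and osteoclast precursors themselves respond to TGF-beta and activin.

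Values are scaled signals, that is, deposited array intensities after each array was centred on its own median. A signal under the floor of 29.6 (the 40th percentile over gene probe sets) was not counted as a level. A gene was called higher or lower at a 2-fold difference (1 on the log2 scale), and "at least" marks a fold in which 1 side was at the floor. The only error at hand is technical, the disagreement between 2 probe sets of the same gene, a factor of 1.33 from 0 to 24 h, 1.41 from 0 to 72 h and 1.28 from 24 to 72 h. It was taken only from probe sets above the floor on both arrays, so it does not cover signals under the floor. Each gene is given by its brightest probe set, and signals are compared between times and never between genes. Over 12393 genes, between 7904 and 7990 were above the floor on an array, a similar number on each. Macrophage markers were all present in the 0 h culture, with 15 of 15 above the floor and summed signals of 40403, 12325 and 16795 on the 0, 24 and 72 h arrays. Osteoclast markers summed to 1901, 8589 and 31963 on the same arrays, and 8 of 8 were above the floor at 72 h. The macrophage sum was largest at 0 h and smallest at 24 h. Every macrophage marker but Cd68 and Csf1r was called lower than at 0 h at both later times. Over all measured genes, 9.22% were lower at 24 h and 12.8% at 72 h. Mrc1 had 3911, 183 and 109, Stab1 3591, 392 and 111, and Itgam 578, 227 and 221. Cd68, a lysosomal protein, had 2868, 2438 and 6699, and Csf1r, the M-CSF receptor, 7485, 5785.5 and 6383. Most of the 72 h macrophage sum came from Cd68 and Csf1r. In RNA from a whole culture, fewer cells of a type and less RNA per cell cannot be told apart.

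Of the 54 pathway genes, 38 were above the floor on at least 1 array and 29 on all 3, and 16 were under it on all 3. At 24 h, 5 of 36 measured pathway genes were higher than at 0 h (13.9%) and 5 were lower (13.9%), where 13.2% of all measured genes were called higher and 9.22% lower. At 72 h, 10 of 36 were higher than at 0 h (27.8%) and 2 were lower (5.56%), where 12.5% of all measured genes were called higher and 12.8% lower. Between 24 and 72 h, 8 of 38 were higher (21.1%) and 2 were lower (5.26%), where 6.92% of all measured genes were called higher and 10.0% lower. The share called higher was thus near the background at 24 h and above it at 72 h. The median log2 difference of the measured pathway genes was 0.02 at 24 h and 0.47 at 72 h against 0 h, and 0.21 from 24 to 72 h. Over all measured genes these medians were 0.12, -0.01 and -0.14. The 24 h and 72 h comparisons share the 0 h array.

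The split between higher and lower calls moved with the scaling of the arrays. Without centring, on which scale the median of all gene probe sets lies above that of 0 h by 0.73 at 24 h and 0.77 at 72 h (log2), the split was 11 higher and 0 lower at 24 h and 20 higher and 0 lower at 72 h. After quantile normalization it was 4 higher and 7 lower at 24 h, and 10 higher and 3 lower at 72 h. Scaling to a 2% trimmed mean gave 4 higher and 7 lower at 24 h and 8 higher and 3 lower at 72 h, and scaling to the hybridization controls gave 7 higher and 4 lower at 24 h and 11 higher and 2 lower at 72 h. From 24 to 72 h the deposited scale gave 11 higher and 2 lower. The split over all measured genes moved with the scaling as well. Without centring it was 3302 higher and 314 lower at 24 h, and 2985 and 455 at 72 h. After quantile normalization it was 850 higher and 962 lower at 24 h, and 1000 and 1182 at 72 h. Scaling to the trimmed mean gave 775 and 1062 at 24 h, and 899 and 1324 at 72 h. Scaling to the hybridization controls gave 1313 and 700 at 24 h, and 1175 and 1019 at 72 h. From 24 to 72 h the deposited scale gave 668 higher and 803 lower over all genes.

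**Figure D1:**
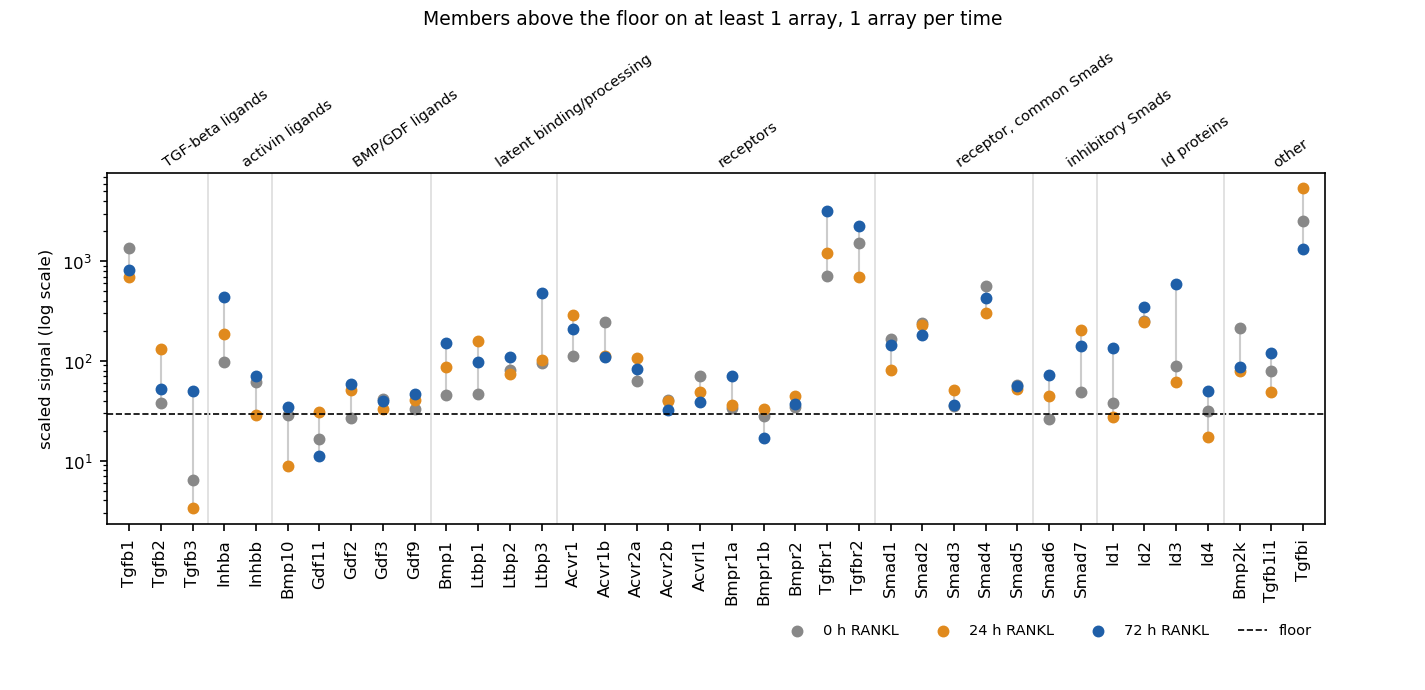
Scaled signal (vertical log axis) of the 38 pathway genes above the floor on at least 1 array, grouped by role, with 1 point per array (grey 0 h, orange 24 h, blue 72 h) and the floor of 29.6 as a dashed line. The 72 h point stands clear of the others for Tgfbr1, Ltbp3, Inhba, Id1 and Id3, and 29 of the genes have all 3 points above the floor.

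Calls at 72 h against 0 h that held under all 10 other processing settings were those of 4 genes, Id3, Inhba, Ltbp3 and Tgfbr1, all higher. The 250 bases upstream of their transcription starts are shown because these calls held throughout and all point the same way. They come from RefSeq on the assembly GRCm38.p6 and are read on the strand of the gene, here the plus strand for all 4. Id3 was read from chr4:136143572-136143821, Inhba from chr13:16011601-16011850, Ltbp3 from chr19:5740650-5740899 and Tgfbr1 from chr4:47352972-47353221, the upstream one of 2 starts listed for it. Each window ends at the base before the start and holds no part of the transcript. Capitals mark the Smad binding element GTCTG or its other strand CAGAC, and the GC-rich element GGCGCC bound by BMP Smads.
Id3: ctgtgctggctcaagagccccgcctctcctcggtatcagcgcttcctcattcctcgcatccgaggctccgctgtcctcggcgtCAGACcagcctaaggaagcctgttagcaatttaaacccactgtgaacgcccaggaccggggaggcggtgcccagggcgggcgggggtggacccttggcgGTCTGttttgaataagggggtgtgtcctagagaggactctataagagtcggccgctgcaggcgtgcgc
Inhba: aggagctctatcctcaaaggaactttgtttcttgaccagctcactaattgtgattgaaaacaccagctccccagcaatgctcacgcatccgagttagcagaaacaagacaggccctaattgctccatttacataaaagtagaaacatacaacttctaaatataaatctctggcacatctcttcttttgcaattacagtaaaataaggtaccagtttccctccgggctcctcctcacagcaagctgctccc
Ltbp3: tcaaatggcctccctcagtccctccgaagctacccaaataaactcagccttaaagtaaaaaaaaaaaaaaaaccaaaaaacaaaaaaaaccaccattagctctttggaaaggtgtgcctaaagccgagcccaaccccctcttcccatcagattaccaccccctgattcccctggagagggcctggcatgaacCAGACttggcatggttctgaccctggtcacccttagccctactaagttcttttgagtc
Tgfbr1: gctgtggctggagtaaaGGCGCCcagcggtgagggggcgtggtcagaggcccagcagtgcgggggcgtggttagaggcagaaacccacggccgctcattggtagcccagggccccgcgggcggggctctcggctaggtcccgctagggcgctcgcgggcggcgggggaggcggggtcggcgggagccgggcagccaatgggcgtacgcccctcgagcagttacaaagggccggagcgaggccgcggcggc
Id3 held GTCTG at 2 places, starting 167 and 68 bases before the start, and Ltbp3 held it at 1 place, 58 bases before it. Tgfbr1 held GGCGCC once, 233 bases before its start, and none of the motifs searched was in the Inhba window. The windows also differed in base composition, with 62.8% G or C in Id3, 43.2% in Inhba, 47.2% in Ltbp3 and 74.8% in Tgfbr1, against a median of 52.4% over all promoters. Of the 54 pathway genes, 40 had an entry, with 49 promoters in all. On either strand, GTCTG was in 42.9% of these 49 and in 42.2% of all 32851 promoters in the table. GGCGCC was in 22.4% of the pathway promoters and 9.59% of all promoters, GGAAAA, the core of the NFAT site, in 12.2% and 20.4%, and TGANTCA, the AP-1 site, in 0.0% and 6.75%. A match to these letters is a description and not a site in use.

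Among the ligands, 10 of 22 were above the floor on at least 1 array, and the activin subunits and TGF-beta ligands accounted for every ligand called. Inhba, the beta A subunit that forms activin A, had a scaled signal of 96.5 at 0 h, 184 at 24 h and 438 at 72 h. Its arrays stood in the order of time, and Inhba was 4.54-fold higher at 72 h than at 0 h and 2.38-fold higher than at 24 h. The first step, 1.91-fold from 0 to 24 h, did not reach 2-fold. Inhbb, the beta B subunit, had 62.0 at 0 h, 28.6 at 24 h and 70.7 at 72 h. It was at least 2.10-fold lower at 24 h than at 0 h, at least 2.39-fold higher at 72 h than at 24 h, and within 1.14-fold between 0 and 72 h. Its other probe set gave 30.8, 12.3 and 35.5, where the floor leaves differences of only 1.04-fold at 24 h and 1.20-fold from 24 to 72 h. With the mean of all probe sets and with the floor at the 60th percentile both Inhbb calls were lost, and the one at 24 h also on the deposited scale. Inhbc and Inhbe, subunits known mainly from liver, were under the floor on all 3 arrays.

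Tgfb1, the main TGF-beta of blood cells and bone matrix, had 1359.7 at 0 h, 698 at 24 h and 813 at 72 h. Its signal was highest at 0 h, by 1.95-fold over 24 h and 1.67-fold over 72 h, both short of a call. It was called lower at 24 h after quantile or trimmed mean scaling. On the deposited scale the difference between 72 h and 0 h had the opposite sign. Tgfb2 had 37.5 at 0 h, 130.5 at 24 h and 52.8 at 72 h. It was highest at 24 h, 3.47-fold above 0 h and 2.47-fold above 72 h. Its other probe sets gave 17.6, 98.0 and 28.0, and 30.3, 84.1 and 70.8. All 3 agree on the higher 24 h value, and the last puts 72 h only 1.19-fold below 24 h and 2.34-fold above 0 h. Tgfb3 was above the floor only at 72 h, with 6.34, 3.31 and 49.6, at least 1.68-fold above either earlier array.

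BMP and GDF ligands gave no call. Of 15, 10 were under the floor on all 3 arrays (Bmp2, Bmp4, Bmp5, Bmp6, Bmp7, Bmp8a, Bmp8b, Bmp15, Gdf5 and Gdf10), with signals from 0.674 to 22.8. The other 5 reached at most 58.7, and Gdf3 and Gdf9 were above the floor on all 3 arrays. Gdf2, also known as BMP9, had 26.7 at 0 h, 51.1 at 24 h and 58.7 at 72 h, at least 1.99-fold higher at 72 h than at 0 h. Gdf9 had 33.3, 40.1 and 46.3, and Gdf3 had 41.2, 32.7 and 39.98. Bmp10 was above the floor only at 72 h (29.0, 8.80 and 34.1) and Gdf11 only at 24 h (16.6, 30.7 and 11.2). Bmp2 and Bmp4, the BMPs best known for inducing bone, had signals of 5.64, 0.981 and 18.5, and of 4.02, 2.74 and 14.6. A signal under the floor does not show that a transcript was absent.

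Of the proteins that hold or process latent ligands, 3 of 4 measured were higher at 72 h than at 0 h, where 12.5% of all measured genes were. Ltbp3, which binds latent TGF-beta and helps its secretion, had 94.2 at 0 h, 103 at 24 h and 478 at 72 h. Its 72 h value stood apart from the earlier pair, 5.07-fold above 0 h and 4.64-fold above 24 h. A separate Ltbp3 probe set gave 57.1, 62.8 and 209, or 3.66-fold and 3.33-fold. Ltbp1, which ties latent TGF-beta to the matrix, had 46.6 at 0 h, 159 at 24 h and 98.0 at 72 h. It was highest at 24 h, 3.41-fold above 0 h, and 72 h remained 2.11-fold above 0 h. Bmp1, a metalloproteinase that cleaves procollagens, Ltbp1 and the BMP antagonist chordin, had 45.3, 87.6 and 151.5, in the order of time, and was 3.34-fold higher at 72 h than at 0 h. A dimmer Bmp1 probe set, 7.41, 35.6 and 53.0, kept that order, and the third was under the floor on all arrays. The Bmp1 call was lost under the 60th percentile floor and with the mean of all probe sets, where the log2 difference was 0.17 instead of 1.74. Ltbp2 had 81.9, 74.5 and 108, within 1.45-fold throughout, and Ltbp4 was under the floor on all 3 arrays.

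Receptors were above the floor for 10 of 12 genes, and those called in at least 1 comparison were Tgfbr1, Tgfbr2, Acvr1, Acvr1b and Bmpr1a. Tgfbr1, the type I kinase for TGF-beta, had 718 at 0 h, 1206 at 24 h and 3194 at 72 h. Its 72 h value was the highest, 4.45-fold above 0 h and 2.65-fold above 24 h, and the step from 0 to 24 h was 1.68-fold. Its other probe sets gave 29.0, 54.3 and 841, and 14.2, 88.5 and 687. Both were under the floor at 0 h, so that 72 h was at least 28.4-fold and at least 23.3-fold above it, and they were 15.5-fold and 7.77-fold above 24 h. The direction of the 72 h difference was shared by all 3 probe sets and its size was not. From 0 to 24 h these other probe sets were at least 1.84-fold and at least 2.99-fold higher. On the deposited scale and with the mean of all probe sets, Tgfbr1 was called higher at 24 h too.

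Tgfbr2, the type II kinase that binds TGF-beta directly, did not follow Tgfbr1 at 24 h. It had 1507 at 0 h, 693 at 24 h and 2256 at 72 h, 2.18-fold lower at 24 h than at 0 h and 3.25-fold higher at 72 h than at 24 h. Between 0 and 72 h the difference was 1.496-fold. Another probe set gave 48.1, 31.6 and 321, with the lowest value again at 24 h but 72 h 6.68-fold above 0 h and 10.2-fold above 24 h. The third Tgfbr2 probe set was under the floor on all arrays. The lower call at 24 h was lost on the deposited scale and with the mean of all probe sets, and kept its sign in both. The later call was also lost with that mean.

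Activin and BMP receptors moved in different directions. Acvr1, a type I receptor for BMPs, had 111 at 0 h, 286 at 24 h and 209 at 72 h, 2.58-fold higher at 24 h than at 0 h and 1.88-fold at 72 h. Of its other probe sets, 57.3, 191 and 109.0 had the same order, and the dimmest, 29.6, 31.8 and 42.2, was highest at 72 h. Acvr1b, the type I receptor for activin, had 245 at 0 h, 112 at 24 h and 109.6 at 72 h, 2.20-fold and 2.24-fold lower than at 0 h. A dimmer Acvr1b probe set went the other way at 72 h, with 12.9, 15.9 and 38.7, and with the mean of all probe sets the log2 difference at 72 h was 0.21. Bmpr1a, a type I BMP receptor, had 33.5, 35.7 and 70.9 and was 2.12-fold higher at 72 h than at 0 h. The other 4 Bmpr1a probe sets were near or under the floor, the highest at 38.8 at 72 h, so the Bmpr1a call rests on 1 dim probe set.

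By their brightest probe sets, the type II receptors of activins and BMPs were within 2-fold throughout. Acvr2a had 63.1, 108 and 82.9, Acvr2b 40.1, 39.6 and 32.4, and Bmpr2 34.5, 44.3 and 36.9. The other Acvr2a probe set gave 3.92, 47.1 and 24.7, above the floor only at 24 h. On the deposited scale and with the mean of all probe sets, Acvr2a was called higher at 24 h than at 0 h. Acvrl1, a type I receptor best known in endothelium, had 69.8, 48.2 and 39.1, a 1.79-fold difference between 0 and 72 h. Of 9 endothelial markers, Pecam1, Cdh5, Tek and Tie1 were under the floor on all arrays, 4 of 9 were above it on each array, and their summed signal was 689, 328 and 276 at 0, 24 and 72 h. Most of the fall in that sum came from Vwf (332, 57.9 and 50.8) and Esam (108, 33.4 and 27.1). Kdr had 46.2, 34.6 and 45.7, and Emcn was above the floor only at 72 h (15.5, 15.5 and 50.7). The part of endothelial cells in the Acvrl1 signal was not tested. Bmpr1b was above the floor only at 24 h, at 32.7, and Acvr1c and Tgfbr3 were under it on all arrays.

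**Figure D2:**
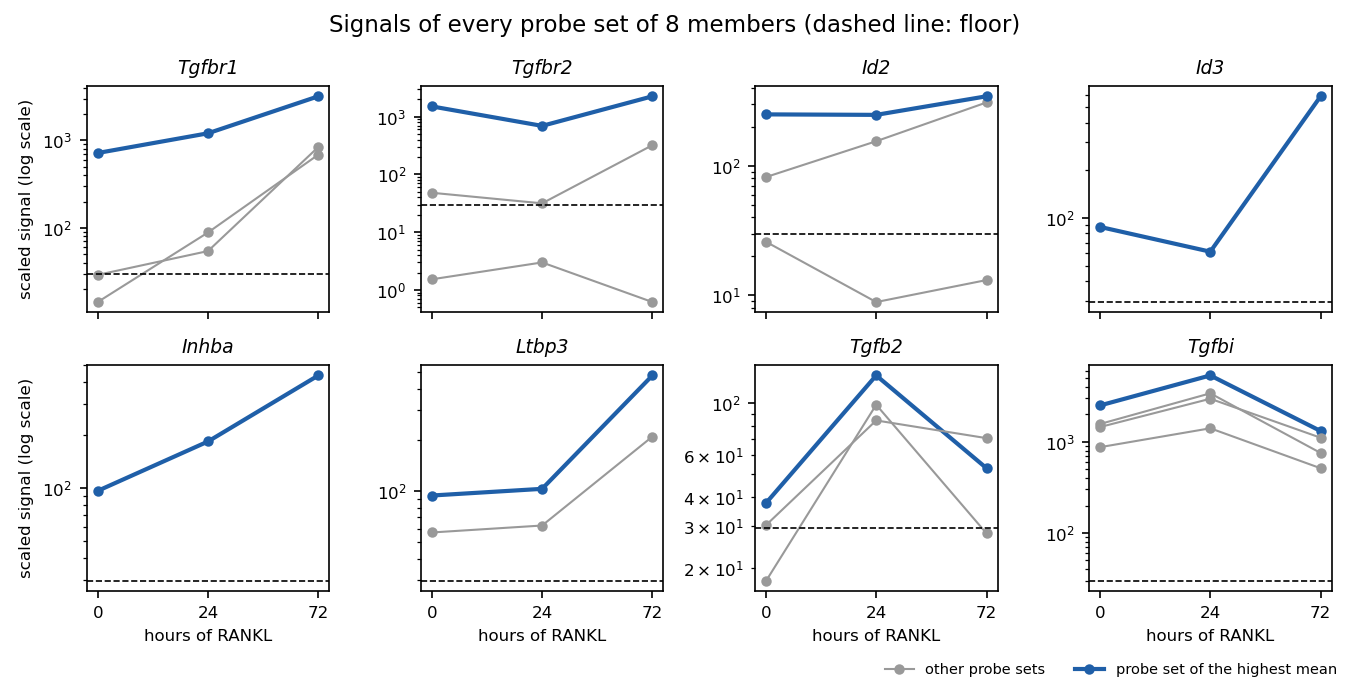
Scaled signal (vertical log axis, its range set for each panel) against hours of RANKL for every probe set of 8 pathway genes, with the probe set that represents the gene in blue, the others in grey and the floor of 29.6 as a dashed line. All probe sets of Tgfbr1, Ltbp3 and Tgfbi share the order of the blue line, whereas the Id2 probe sets differ, 1.38-fold against 3.78-fold from 0 to 72 h.

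Of 6 receptor and common Smads, 5 were above the floor and 1 was called, lower at 24 h, when 9.22% of all measured genes were lower. Smad1, a BMP receptor Smad, had 166 at 0 h, 81.3 at 24 h and 146 at 72 h, 2.05-fold lower at 24 h than at 0 h and 1.14-fold lower at 72 h. Its other probe set gave 82.7, 25.4 and 42.7, also lowest at 24 h. The call just passes 2-fold and was lost on the deposited scale, with hybridization control scaling and with the higher floor. Smad2 had 241, 231 and 182, Smad3 34.9, 51.5 and 36.0, and Smad5 57.2, 52.1 and 55.8, each within 1.48-fold of its 0 h value. Smad4, the partner of all of them, had 557, 301 and 431, a 1.85-fold difference between 0 and 24 h. It was called lower at 24 h after quantile or trimmed mean scaling. Its 3 probe sets disagreed in sign, another giving 329, 393 and 408. Smad9 was under the floor on all arrays.

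Both inhibitory Smads were higher at 72 h than at 0 h, where 12.5% of all measured genes were. Smad7, which blocks TGF-beta and BMP type I receptors, had 48.8 at 0 h, 206 at 24 h and 142 at 72 h. It was 4.22-fold higher at 24 h, the only one of the 10 calls at 24 h that held under all 10 other settings, and 2.92-fold higher at 72 h. Smad6, which acts mainly on BMP signals, had 26.4 at 0 h, 44.5 at 24 h and 72.8 at 72 h, at least 2.46-fold higher at 72 h. The arrays stood in the order of time for Smad6 and peaked at 24 h for Smad7. Each gene has 1 probe set.

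Among the Id genes, Id1 and Id3 were higher at 72 h and Id2 and Id4 were not called. Id3 had 88.0 at 0 h, 61.4 at 24 h and 586 at 72 h. Its 72 h value was 6.66-fold above 0 h and 9.55-fold above 24 h, and the 1.43-fold lower value at 24 h changed sign on the deposited scale. Id1 had 37.8 at 0 h, 27.4 at 24 h and 133 at 72 h, 3.53-fold higher at 72 h than at 0 h and at least 4.50-fold higher than at 24 h. Id1 thus had its high value on the same array as Id3, but it lay near the floor on the earlier arrays and its only probe set can read several transcripts. With the floor at the 60th percentile the Id1 calls were lost.

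Id2 had 250.3 at 0 h, 248 at 24 h and 345 at 72 h, within 1.39-fold throughout. Another Id2 probe set gave 82.0, 155 and 310, 3.78-fold higher at 72 h than at 0 h, so the probe sets agree that 72 h was the highest and not by how much. Id4 had 31.1, 17.4 and 49.5, 1.59-fold higher at 72 h than at 0 h. Another Id4 probe set gave 5.45, 3.39 and 46.5, above the floor only at 72 h, and the third was under it on all arrays. In all 4 Id genes the brightest probe set was highest at 72 h.

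The symbol rule also took in Tgfbi, Tgfb1i1 and Bmp2k, which are named for their induction by a ligand of the family and are neither ligands nor receptors. Tgfbi, a secreted matrix protein that binds collagen and integrins, had 2508 at 0 h, 5357 at 24 h and 1314 at 72 h. It was 2.14-fold higher at 24 h than at 0 h and 4.08-fold lower at 72 h than at 24 h. All 4 Tgfbi probe sets had this order, the lower value at 72 h ranging from 2.68-fold to 4.52-fold below 24 h. Tgfb1i1, a focal adhesion protein, had 78.4, 48.6 and 121 and was 2.48-fold higher at 72 h than at 24 h. Bmp2k, a kinase, had 212 at 0 h, 79.8 at 24 h and 86.6 at 72 h, 2.65-fold and 2.44-fold lower than at 0 h. Its other probe set gave 2.03-fold and 1.70-fold lower values. The lower Bmp2k calls were lost on the deposited scale, as were all lower calls against 0 h.

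**Figure D3:**
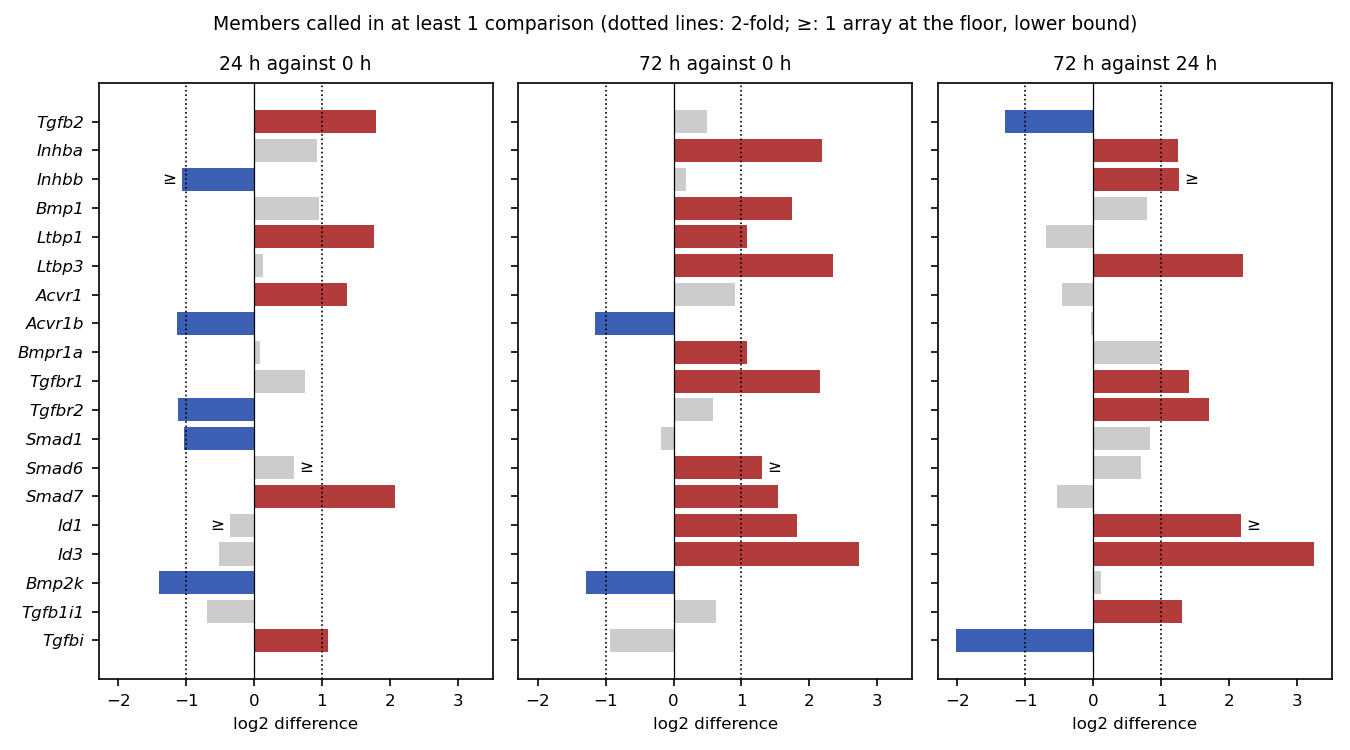
Log2 difference (horizontal axis) of the 19 pathway genes called in at least 1 comparison, with red for called higher, blue for called lower, grey for within 2-fold, dotted lines at 2-fold and the sign ≥ where 1 array was at the floor. Id1, Id3, Inhba, Ltbp3 and Tgfbr1 are red in both the middle panel (72 h against 0 h) and the right panel (72 h against 24 h).

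The 19 called genes were sorted by time course. These shapes were not counted over all genes, so the counts below have no background share of their own. Over all measured genes, 13.2% were higher and 9.22% lower at 24 h than at 0 h. From 24 to 72 h, 6.92% were higher and 10.0% lower. Higher at 24 h and within 2-fold afterwards were 3 genes, Acvr1, Ltbp1 and Smad7. Higher at 24 h and lower again by 72 h were 2 genes, Tgfb2 and Tgfbi. The later shape, not called higher or lower at 24 h and higher from 24 to 72 h, held 6 genes, Id1, Id3, Inhba, Ltbp3, Tgfb1i1 and Tgfbr1, and 2 genes, Inhbb and Tgfbr2, were lower at 24 h and higher from 24 to 72 h. The other 6 had no call from 24 to 72 h. Acvr1b, Bmp2k and Smad1 were lower at 24 h than at 0 h, and Bmp1, Bmpr1a and Smad6 were called only between 0 and 72 h. The 19 genes that were above the floor but never called lay between -0.96 and 0.79 on the log2 scale at 24 h, and between -0.84 and 0.99 at 72 h, against 0 h.

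Agreement between probe sets was checked where a called gene had another measured probe set. From 0 to 24 h the other probe sets differed in the same direction in 7 of 7 genes, from 0 to 72 h in 5 of 6, with Acvr1b the exception, and from 24 to 72 h in 6 of 6. Only part of the calls held under all 10 other settings, 1 of 10 at 24 h (Smad7), 4 of 12 at 72 h against 0 h, and 3 of 10 from 24 to 72 h (Id3, Ltbp3 and Tgfbi). Scaling alone ended some higher calls, that of Tgfbi at 24 h after quantile or trimmed mean scaling and those of Ltbp1 and Bmpr1a at 72 h after trimmed mean scaling. Under the 60th percentile floor, calls ended for Inhbb, Ltbp1, Smad1 and Tgfb2 at 24 h, for Bmp1, Bmpr1a, Id1, Ltbp1, Smad6 and Smad7 at 72 h against 0 h, and for Id1, Inhbb, Tgfb1i1 and Tgfb2 from 24 to 72 h.

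**Figure D4:**
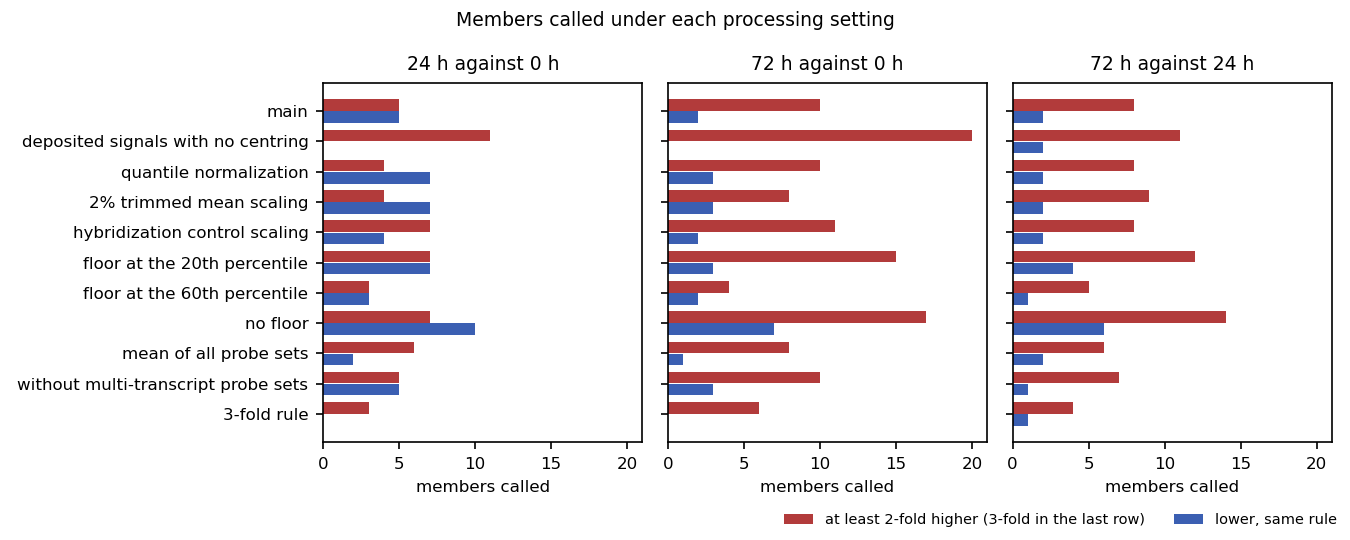
Number of pathway genes called higher (red) and lower (blue) in each comparison under the main processing and 10 alternatives. Higher calls at 72 h against 0 h range from 4 with the floor at the 60th percentile to 20 on the deposited scale, where lower calls against 0 h number 0. Over all measured genes, 746 were higher and 712 lower at 72 h against 0 h under that floor, and 2985 and 455 on the deposited scale.

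Other genes of the pathway, outside the symbol rule, were taken from lists of regulators and targets. Of 79 on the array, 8 of 57 measured were higher (14.0%, against 13.2% of all measured genes) and 8 lower (14.0%, against 9.22%) at 24 h than at 0 h. At 72 h, 13 of 58 were higher (22.4%, against 12.5%) and 11 lower (19.0%, against 12.8%). From 24 to 72 h, 9 of 53 were higher (17.0%, against 6.92%) and 3 lower (5.66%, against 10.0%). On the deposited scale the split was 21 higher and 2 lower at 24 h, and 22 higher and 3 lower at 72 h. 

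Of 4 measured co-receptors and decoys, 1 was higher and 2 lower than at 0 h at both later times. Over all measured genes, 13.2% were higher and 9.22% lower at 24 h, and 12.5% higher and 12.8% lower at 72 h. Cd109, a membrane protein that binds TGF-beta and dampens its signal, had 32.0 at 0 h, 294 at 24 h and 1008 at 72 h. Against 0 h, the later arrays were 9.18-fold and 31.5-fold higher. Nrros, which tethers latent TGF-beta on myeloid cells, had 1197 at 0 h, 307 at 24 h and 253 at 72 h, 4.73-fold lower at 72 h. Bambi, a decoy receptor without a kinase, had 159, 61.1 and 51.2, 3.10-fold lower at 72 h. Both lower Bambi calls against 0 h were lost on the deposited scale and under the 60th percentile floor. Eng, the co-receptor endoglin, had 117, 144 and 77.2 and was not called.

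Of 9 measured ligand traps, 3 were higher and 1 lower at 72 h than at 0 h, where 12.5% of all measured genes were higher and 12.8% lower. Twsg1, which binds BMPs, had 107 at 0 h, 368 at 24 h and 702 at 72 h, 6.56-fold higher at 72 h. Fstl1, related to follistatin, had 255, 170.2 and 615, 2.41-fold higher at 72 h. Bgn, a small proteoglycan of the matrix, had 279, 384 and 1085 and was 3.89-fold higher, whereas its relative Dcn had 127, 69.7 and 45.7 and was 2.78-fold lower. Crim1, which binds BMPs, had 88.9, 34.4 and 111, lowest at 24 h by 2.58-fold. The lower calls of Dcn at 72 h and Crim1 at 24 h were lost on the deposited scale and under the 60th percentile floor. That of Crim1 was also lost with the mean of all probe sets. Among genes of latent TGF-beta activation, Itgav, an integrin chain that frees latent TGF-beta, had 1174, 3633 and 4197 and was 3.58-fold higher at 72 h. Thbs1, an activator of latent TGF-beta, had 419.9, 186 and 788, 2.26-fold lower at 24 h than at 0 h and 4.24-fold higher at 72 h than at 24 h. Emilin1 and Lrg1 were lower at 72 h than at 0 h, by 2.65-fold and at least 2.98-fold. The Emilin1 call was lost on the deposited scale and with the mean of all probe sets. The lower Thbs1 call at 24 h was also lost on the deposited scale, and the Lrg1 call at 72 h under the 60th percentile floor.

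Inside the cell, 20 regulators of Smad signals were measured, with 3 higher and 1 lower at 24 h, 3 higher and 3 lower at 72 h against 0 h, and 0 called between 24 and 72 h. Over all measured genes, 13.2% were higher and 9.22% lower at 24 h, and 12.5% and 12.8% at 72 h. From 24 to 72 h those shares were 6.92% and 10.0%. Pmepa1, a TGF-beta target that limits the signal, had 189.8 at 0 h, 1062 at 24 h and 667 at 72 h, 5.60-fold and 3.51-fold higher than at 0 h. Like Smad7, it was highest at 24 h. Cited2, a transcriptional co-regulator, had 666, 2197 and 1842 and was 3.30-fold and 2.77-fold higher. Zeb1 and Zeb2, related repressors that bind Smads, went opposite ways, with 48.8, 182 and 218 for Zeb1 and 486, 205 and 193 for Zeb2. With the mean of all probe sets the Zeb1 calls and the Cited2 call at 72 h were lost. The Zeb2 calls were lost on the deposited scale. Ski, a repressor of Smad complexes, was 2.16-fold lower at 72 h than at 0 h, and the phosphatase Ctdsp1 2.10-fold lower. The calls of Ski and Ctdsp1 were also lost on the deposited scale.

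Helix-loop-helix factors, the class of protein that Id proteins act on, were measured for 8 genes at 72 h against 0 h, with 1 higher and 3 lower. Over all measured genes, 12.5% were higher and 12.8% lower. Lyl1, a factor of blood progenitors, had 845 at 0 h, 132 at 24 h and 39.3 at 72 h, 21.5-fold lower at 72 h, and its relative Tal1 was 3.27-fold lower. Tcf4, an E protein, had 310, 174 and 116 and was 2.67-fold lower at 72 h, while the E protein Tcf12 had 306, 580.2 and 566, within 1.90-fold. The Tcf4 and Tal1 calls at 72 h were lost on the deposited scale, and that of Tal1 also under the 60th percentile floor. Bhlhe40, a repressor, had 152, 913 and 1299 and was 8.57-fold higher at 72 h. Mitf, needed for osteoclast genes, had 485, 1808 and 593, 3.73-fold higher at 24 h than at 0 h and 3.05-fold lower at 72 h than at 24 h.

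Known targets of TGF-beta or BMP signals were higher at 72 h than at 0 h for 5 of 11 measured and lower for 0, where 12.5% of all measured genes were higher and 12.8% lower, and the median log2 difference of the 11 was -0.17. At 24 h, 1 of 11 was higher, where 13.2% of all measured genes were. The 5 were Pmepa1, Col1a1, Fn1, Ccn2 and Cdkn2b. Ccn2, a secreted matrix protein, had 818 at 0 h, 812 at 24 h and 1892 at 72 h, 2.31-fold higher at 72 h, a call lost after quantile normalization. Cdkn2b, a cell cycle inhibitor, had 18.7, 49.0 and 118, at least 4.001-fold higher, a call lost under the 60th percentile floor. Fn1, fibronectin, had 692, 1031 and 2717 and was 3.93-fold higher, and Col1a1, type I collagen, had 205, 380.3 and 1433 and was 6.98-fold higher. Junb was 2.91-fold lower at 72 h than at 24 h.

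Several of these genes are also made by stromal cells, and the stromal and osteoblast markers, which include Col1a1, were mixed. They summed to 3193, 3587 and 10583 on the 0, 24 and 72 h arrays, with 10, 9 and 11 of 13 above the floor. At 72 h 5 were higher than at 0 h (Col1a1, Col1a2, Col3a1, Postn and Sparc) and 1 lower (Dcn). Over all measured genes, 12.5% were higher and 12.8% lower. The other stromal markers were not called at 72 h against 0 h, among them Pdgfrb with 64.4, 44.2 and 125 and Cxcl12 with 82.9, 41.9 and 74.2. Pdgfrb, 1.94-fold higher, was called on the deposited scale, with hybridization control scaling and with the mean of all probe sets. From 24 to 72 h Pdgfrb and the same 5 genes were called higher, by 2.43-fold to 3.77-fold, where 6.92% of all measured genes were. Dcn was 1.53-fold lower then and not called. Thy1 was under the floor on all arrays. The part of stromal cells in the 72 h values of Id1, Id3, Inhba, Ltbp3, Bmp1, Bgn, Fstl1, Fn1 and Ccn2 was not tested. Granulocyte markers summed to less at each later time, 18825, 12820 and 1356, with 10, 10 and 6 of 10 above the floor. Megakaryocyte and platelet markers, which include Itgb3, an osteoclast gene, had a summed signal of 9409, 1871 and 1673, with 8, 7 and 8 of 8 above the floor. Itgb3 itself had 36.9, 6.70 and 774, a large part of the 72 h sum. Each of the other markers in this list had a lower signal at 72 h than at 24 h. Platelets store Tgfb1 protein, and the part of such cells in the higher 0 h signal of Tgfb1 was not tested. B cell markers were above the floor for 1, 0 and 0 of 6 at 0, 24 and 72 h, T and NK cell markers for 1, 0 and 0 of 7, and erythroid markers for 1, 2 and 1 of 5.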

How the data were processed

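Gene expression was read on 3 Affymetrix arrays, 1 per time. The deposited values are intensity signals on a linear scale, which the submitters' processing notes credit to MAS5; its version and scaling are not given in the sources used here. Of 22690 probe sets, 64 are controls; 20380 name 1 gene symbol, 691 several and 1555 none, by the platform annotation. All 54 pathway genes matched RefSeq by identifier. Because the deposited arrays had medians of 36.7, 60.9 and 62.7 at 0, 24 and 72 h, log2 signals were centred on each array's median over gene probe sets, which makes each difference relative to that median. Signals under the floor (4.89 on the log2 scale) were replaced by it, and a gene was measured where at least 1 of the 2 arrays was above it. A gene is its probe set of highest mean log2 signal. Named genes are every member above the floor and, of the other pathway lists, up to 6 called genes each; Tcf12 and Eng were added after their values were seen. For the technical error, the 2 brightest probe sets of a gene were taken among those above the floor on both arrays. This error is the SD between them divided by the square root of 2, on the log2 scale 0.41, 0.49 and 0.36 (2727, 2702 and 2785 genes). It leaves out variation between cultures, and precision is limited by having 3 arrays. The alternatives were 4 scalings (the deposited one, quantile, 2% trimmed mean, 18 hybridization controls), 3 floors (20th and 60th percentile, none with a pseudocount of 1), 2 choices of probe set and a 3-fold rule. The pathway genes and lists were chosen with earlier results of these data known. Python 3.11.15, numpy 2.4.6 and pandas 2.3.3 were used. The code was checked on rescaled copies of the 0 h array, without noise, with known folds put into bright genes. That check says nothing of noise, of genes near the floor or of calls near 2-fold.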

Additional observations from a re-analysis of the deposited data

How the results depend on the processing

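With 1 array per time, no replicate could be left out, and no paired analysis was possible because each time has 1 sample. Direction was kept for all calls but 1, since with the mean of all probe sets the 72 h against 0 h difference of Acvr1b was 0.21. The numbers of higher and lower calls moved as follows. On the deposited scale, which by construction adds the shift of the medians, they were 11 and 0 at 24 h and 20 and 0 at 72 h against 0 h. With the floor at the 60th percentile, which leaves fewer genes measured, they were 3 and 3 at 24 h, 4 higher at 72 h, and 5 and 1 from 24 to 72 h. At the 20th percentile, 4 were lower from 24 to 72 h. With no floor they were 10 lower at 24 h, 17 and 7 at 72 h, and 14 and 6 from 24 to 72 h. The mean of all probe sets gave 2 lower at 24 h and 1 at 72 h against 0 h, and leaving out multi-transcript probe sets 1 lower from 24 to 72 h; the cause was not tested. The 3-fold rule gave 3 and 0 at 24 h, 6 and 0 at 72 h, and 4 and 1 from 24 to 72 h. Over all measured genes, in the same order, the deposited scale gave 3302 and 314, 2985 and 455, and 668 and 803. The 60th percentile floor gave 826 and 523, 746 and 712, and 364 and 563 of all genes. The 3-fold rule gave 356 and 361, 461 and 511, and 225 and 238 of them. With no floor, the counts over all genes were 1874 and 1757, 1862 and 2109, and 1350 and 1700. At the 20th percentile, 1267 of all genes were lower from 24 to 72 h. The mean of all probe sets gave 698 lower at 24 h and 924 at 72 h against 0 h. Leaving out multi-transcript probe sets gave 666 lower from 24 to 72 h. All other counts of the 54 genes were within 1.5 times the reported ones. Counts of the other pathway genes (8 higher and 8 lower, 13 and 11, 9 and 3 in the same order of comparisons) moved further on the deposited scale (21 and 2, 22 and 3, 10 and 3), with the 60th percentile floor (7 and 4, 12 and 7, 7 and 2), with no floor (13 and 13, 19 and 16, 15 and 7) and under the 3-fold rule (8 and 2, 10 and 4, 5 and 2); from 24 to 72 h, 5 were lower with the 20th percentile floor or the mean of all probe sets. Signal over the floor limits the dim genes: Id1, Id4, Smad6, Bmpr1a, Tgfb2, Ltbp1 and the BMP and GDF ligands.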
